A study of Mus musculus with 9 samples.

Results

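The circadian clock genes described here are Bhlhe40, Nr1d1, Nr1d2, Clock, Per1, Per2, Cry1, Cry2, Dbp and Tef, measured in OB-6 cells, a mouse osteoblastic line, over the first hour of parathyroid hormone (PTH). They were taken as every probe set whose gene symbol in the platform annotation was 1 of these 10 names, which gave 12 of the 12488 probe sets on the array, for 10 of the 8251 genes that have a probe set with a single symbol. Each gene had 1 probe set except Cry1, which had 3. Total RNA was profiled on 1-colour short-oligonucleotide arrays at 0, 30 and 60 min of PTH, with 3 arrays per time, named replicates a, b and c, and 9 in all. The 0 min cells, which the labels call the basal level, are the only comparison for both PTH times, so time in the dish and PTH cannot be told apart. No label states the hormone's dose or how the cells were grown. OB-6 is a cell line, and whether the replicates came from separate cultures is not stated either, so p-values here reflect only the spread among the arrays, which may be technical.

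In the mammalian clock the transcription factors CLOCK and BMAL1 (gene Arntl) bind E-boxes and switch on the Per and Cry genes, whose proteins then hold CLOCK and BMAL1 back. A second loop runs through the nuclear receptors REV-ERBalpha and REV-ERBbeta (genes Nr1d1 and Nr1d2), which repress Arntl and other genes at ROR elements, and the PAR bZIP factors DBP and TEF carry the rhythm to output genes through D-boxes. BHLHE40, also called DEC1, is a repressor that binds E-boxes. In bone the clock is known to restrain osteoblast growth, and cAMP, the main second messenger of the PTH receptor, is a known input to the clock through CREB sites in Per1.

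RefSeq promoter windows (GRCm38.p6) were at hand for 8 of the 10 genes, in 12 windows, and were matched by Entrez identifier. The 250 bases before the start site were searched on both strands for the E-box CACGTG, its variant CACGTT, the CRE half-site TGACG, the full CRE TGACGTCA, the ROR element core AGGTCA and the D-box in the forms TTACGTAA and TTATGTAA. The full CRE holds the half-site on each strand, and the other motifs share no whole site. The following windows are shown because Nr1d2 and Clock are the genes that fell, and because Per1 is the member best known as a CREB target. Of the 3 Clock windows, only the one with a motif match is shown. Capitals mark motif matches.

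Nr1d2, chr14:18239107-18239356, minus strand: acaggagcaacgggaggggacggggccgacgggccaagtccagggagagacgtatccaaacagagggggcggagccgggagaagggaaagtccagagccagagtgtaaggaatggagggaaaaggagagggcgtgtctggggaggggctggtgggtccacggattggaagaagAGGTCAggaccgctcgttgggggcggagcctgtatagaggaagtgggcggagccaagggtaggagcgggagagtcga
Clock, chr5:76303503-76303752, minus strand: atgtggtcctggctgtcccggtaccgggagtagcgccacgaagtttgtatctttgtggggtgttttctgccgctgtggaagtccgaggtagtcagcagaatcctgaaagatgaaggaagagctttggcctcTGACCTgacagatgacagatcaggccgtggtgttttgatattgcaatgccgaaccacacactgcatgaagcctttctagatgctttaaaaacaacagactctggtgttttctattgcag
Per1, chr11:69098699-69098948, plus strand: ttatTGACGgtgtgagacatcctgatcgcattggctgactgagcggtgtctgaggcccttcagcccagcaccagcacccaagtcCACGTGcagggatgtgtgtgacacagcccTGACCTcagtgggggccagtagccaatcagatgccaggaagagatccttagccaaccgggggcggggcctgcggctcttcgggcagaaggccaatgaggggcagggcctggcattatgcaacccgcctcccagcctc
Per1, chr11:69099902-69100151, plus strand: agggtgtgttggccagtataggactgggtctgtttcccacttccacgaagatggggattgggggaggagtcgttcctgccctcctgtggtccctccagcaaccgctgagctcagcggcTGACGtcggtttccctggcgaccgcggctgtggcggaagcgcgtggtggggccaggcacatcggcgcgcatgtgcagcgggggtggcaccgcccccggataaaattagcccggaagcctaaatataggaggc

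Nr1d2 holds AGGTCA, beginning 77 bases before its start site, and Clock holds the same core on the other strand, as TGACCT, beginning 119 bases before the start shown. That Clock start lies downstream of 2 others, whose windows hold 0 of the 6 motifs. The ROR core is present in 14.0% of all 32851 windows in the table. Both Per1 windows hold TGACG, a half-site found in 17.8% of all windows, beginning 246 bases before the upstream start and 132 bases before the downstream one. The upstream Per1 window also holds CACGTG, which is in 6.02% of all windows, and a ROR core. Among the windows not shown, those of Cry1 (1 window) and Tef (2 windows) hold CACGTG, those of Cry1 and Cry2 hold TGACG and the variant CACGTT, that of Nr1d1 holds the variant, and that of Dbp holds none of the 6. The variant is in 3.85% of all windows. The full CRE and the D-box were in 0 of the 12 member windows, against 1.55% and 0.931% of all windows. A match describes letters only.

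Fos, an immediate-early gene under CREB control, had mean intensities of 30.9 ± 3.45 at 0 min, 698 ± 104 at 30 min and 169 ± 46.5 at 60 min (SD, n = 3 arrays each). Of 14 tested genes from a list of CREB and cAMP response genes, 7 were higher at 30 min and 8 at 60 min, judged by the brightest probe set of each, and the other genes did not pass. Over all tested probe sets 0.482% were higher at 30 min and 4.35% at 60 min. The list was chosen with earlier results of these data known, so these counts are a description only. Of the list's 18 tested probe sets, 1 was lower at 60 min, 1 of 2 for Gadd45b, a stress response gene, at a log2 difference of -0.83 (limma adjusted p = 0.0331). Of 6 osteoblast markers with a probe set, 4 lay above the detection filter on all 9 arrays. The summed intensity of all 6 was 12424 to 13848 at 0 min, 13377 to 13681 at 30 min and 14481 to 17115 at 60 min. Ibsp went the other way in its brightest probe set, from 117 ± 1.96 at 0 min to 66.6 ± 30.4 at 60 min (SD), and did not pass. Of 5 tested osteoblast marker genes, 1 was called higher by limma at 60 min and 0 lower, judged by the brightest tested probe set of each. At 30 min 0 were called. The probe set of Pth1r, the PTH receptor, lay at or below 41.6 on every array, under the filter. Markers of other cell types lay above the filter on all 9 arrays in 2 of 6 haematopoietic (Cd14 and Cd68), 2 of 4 adipocyte (Fabp4 and Pparg), 1 of 5 skeletal muscle (Myod1), 0 of 4 endothelial and 0 of 2 chondrocyte genes with a probe set. Cd14 lay between 927 and 1424 and the brightest probe set of Cd68 between 93.5 and 149.5, while those of Ptprc, the pan-leukocyte marker, lay at or below 18.1. The summed intensity of all 6 haematopoietic markers was 1163 to 1333 at 0 min, 1206 to 1318 at 30 min and 1243 to 1632 at 60 min, that of the 4 measured adipocyte markers 177 to 184, 156 to 186 and 157 to 184, and that of the 5 skeletal muscle markers 204 to 302, 325 to 363 and 276 to 410. The endothelial sum was 29.3 to 45.3, 37.6 to 70.8 and 81.1 to 95.3 at these times, and the chondrocyte sum 12.8 to 18.1, 14.1 to 55.6 and 27.5 to 37.6. Among tested genes, 1 of 3 skeletal muscle, 0 of 3 haematopoietic and 0 of 2 adipocyte markers were called higher by limma at 60 min. At that time 0 were called lower. Ckm, a muscle marker, averaged 53.4 ± 10.9 at 0 min and 106 ± 16.9 at 60 min (SD) in its brightest probe set. The part of other cell types in the results on clock genes was not tested, and in bulk RNA fewer cells of a type and less RNA per cell cannot be told apart. The arrays correlated with each other at 0.891 to 0.980 over the tested probe sets, and the lowest median correlation with the others, 0.938, was that of replicate b at 60 min. It also had the lowest median intensity of the 9 arrays (73.1, against 73.7 to 88.5).

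Of the 12 clock probe sets, 10 entered the test, 1 for each gene. Testing required an intensity above 44.7, the 40th percentile of the table, on 3 or more of the 9 arrays, which left 7884 probe sets. Differences were estimated on the scale log2(intensity + 11.8), which understates changes of dim probe sets, with a limma model over all 9 arrays. Fold changes given below are on this scale and differ from the ratios of the mean intensities beside them. A gene was called at a Benjamini-Hochberg adjusted p under 0.05 over all 7884. At 30 min 1 clock gene of 10 was called (Bhlhe40, higher), against 0.939% of all tested probe sets, of which 0.482% were higher and 0.457% lower. At an unadjusted p under 0.05 there were 3 of 10 (Bhlhe40, Nr1d2 and Clock), against 17.9% of all tested, and the arrays of 30 and 0 min did not overlap for 2 of 10, against 30.6%. At 60 min Bhlhe40 was higher and Nr1d2 and Clock were lower, 1 and 2 of 10, against 4.35% and 8.73% of all tested, or 13.1% together. The same 3 had an unadjusted p under 0.05 at 60 min, against 32.8% of all tested, and their arrays did not overlap those of 0 min, against 40.7%. The clock genes had a median log2 difference of -0.052 at 30 min and 0.00012 at 60 min, beside 0.051 and 0.034 over all tested probe sets. Between 60 and 30 min 0 of the 10 were called, and 0.0254% of all tested probe sets were, with 1 (Bhlhe40) at an unadjusted p under 0.05, against 9.07%, and 2 (Bhlhe40 and Per2) without overlap, against 11.6%. By limma's F test for any change over the 3 times, 1 clock gene passed (Bhlhe40), against 4.64% of all tested.

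**Figure D1:**
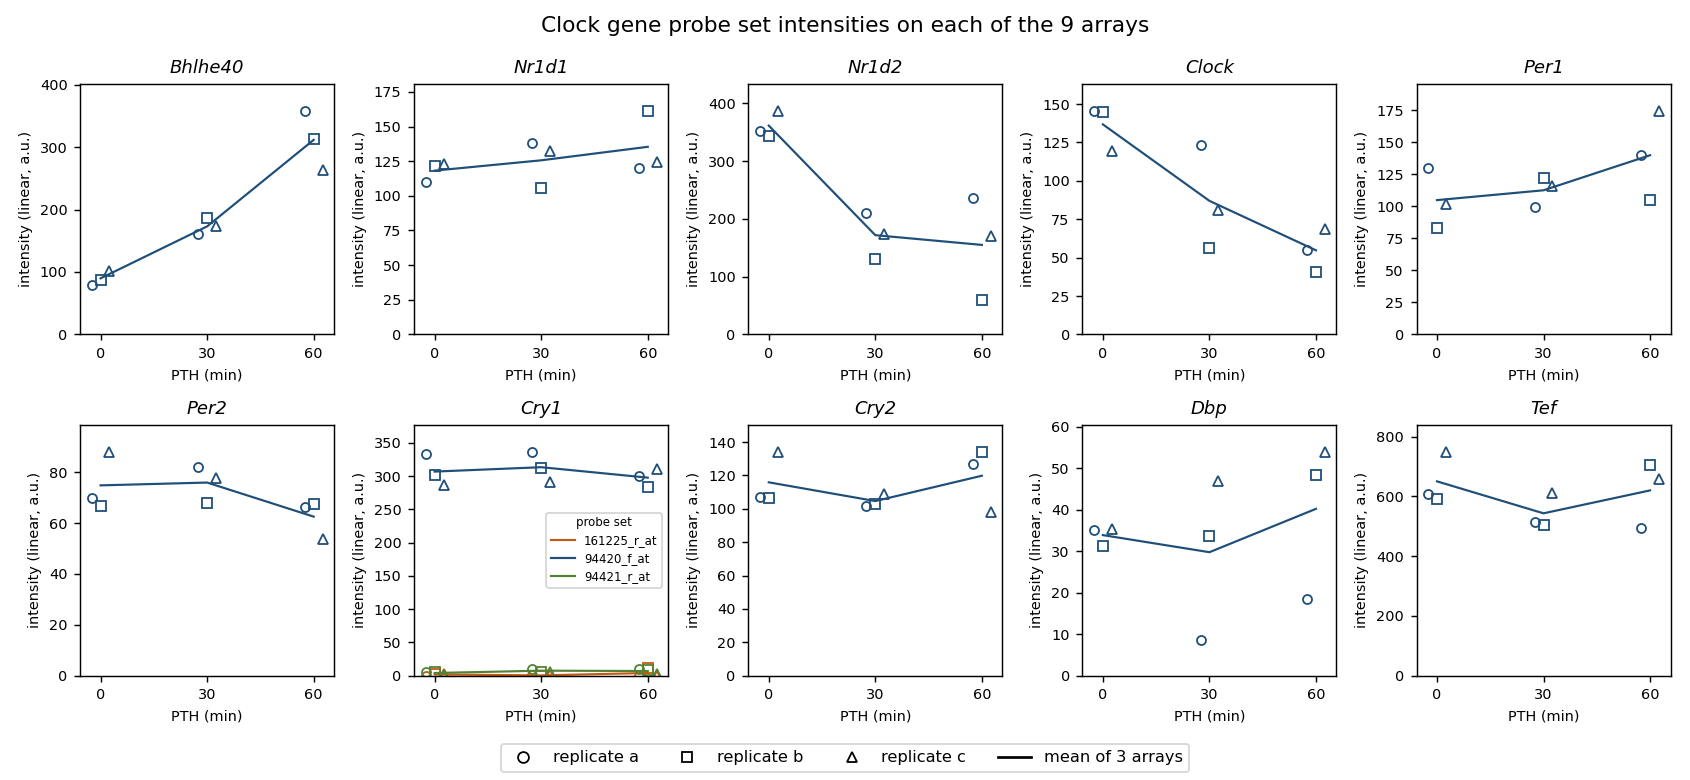
Intensity (linear, arbitrary units) of every clock gene probe set at 0, 30 and 60 min of PTH, 1 panel per gene with its own axis from 0. Symbols are single arrays by replicate letter and lines join the means of 3 arrays. Bhlhe40 is higher at each later time with no overlap between times, Nr1d2 and Clock are lower at 60 min than at 0 min on every array, and the other genes overlap between 0 and 60 min.

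Bhlhe40, the E-box repressor, had the smallest adjusted p of the 10 genes at both PTH times. Its intensity was 79.8, 87.9 and 102 on the 0 min arrays a, b and c, 160.2, 186 and 173 at 30 min, and 359, 314 and 263 at 60 min. The 3 times did not overlap, and every later array lay above every earlier one. After 30 min Bhlhe40 averaged 173 ± 12.7, against 89.8 ± 11.1 at 0 min (SD, n = 3 each), and had risen 1.82-fold, a log2 difference of 0.87 with a standard error (SE) of 0.15 (95% interval 0.53 to 1.198, limma adjusted p = 0.0289). After 60 min it averaged 312 ± 48.0 and had risen 3.17-fold (log2 difference 1.67, SE 0.15, 95% interval 1.33 to 1.997, limma adjusted p = 0.000803), with 4 of the 7884 probe sets showing a larger rise. The call at 60 min was kept with any 1 array left out, over log2 differences of 1.56 to 1.78 and limma adjusted p of 0.00127 to 0.00771. At 30 min the call was lost when any of the 0 min arrays, or 30 min replicate b or c, was left out, with limma adjusted p up to 0.192, and without the filter on dim probe sets (0.0571), while the log2 difference stayed between 0.79 and 0.95 with 1 array left out.

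Between 60 and 30 min the log2 difference of Bhlhe40 was 0.80 (SE 0.15, 95% interval 0.47 to 1.13). All 3 arrays at 60 min lay above all 3 at 30 min, which held for 5.06% of the tested probe sets. The unadjusted p was 0.000269 and the limma adjusted p 0.28, so this step did not pass. Fos, in contrast, was lower at 60 min than at 30 min, by a log2 difference of -1.99 (limma adjusted p = 0.00475).

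The tested genes nearest to Bhlhe40 in their pair of differences from 0 min were Fosl1, a Fos-related AP-1 subunit, at a distance of 0.38 log2 units, Errfi1, an inhibitor of the EGF receptor, at 0.50, and Sema4d, a semaphorin, at 0.51. Fosl1 stood at 1.03 at 30 min and 1.33 at 60 min, Errfi1 at 1.34 and 1.504, and Sema4d, from a dim probe set with a mean of 37.0, at 0.84 and 1.15. Within 0.25 log2 units of Bhlhe40 there were 0 of 7113 probe sets with 1 symbol of another gene. Likeness here is the distance between 2 differences that share the 0 min arrays, and says nothing of shared control.

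**Figure D2:**
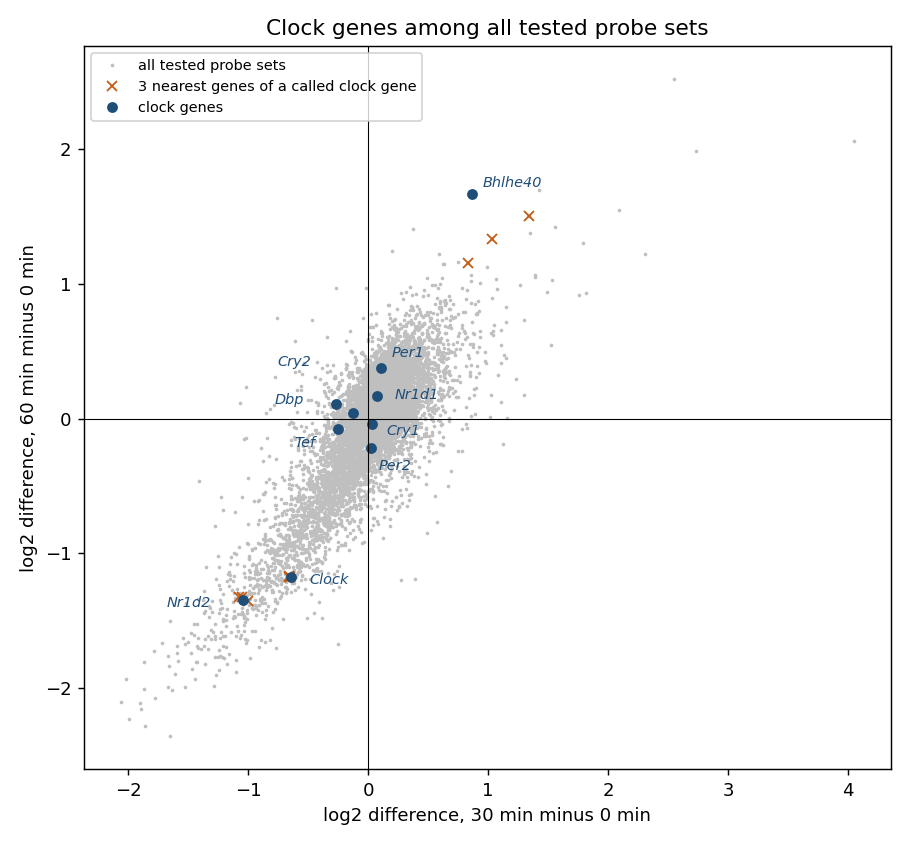
Log2 difference at 60 min against that at 30 min, both minus 0 min, for all 7884 tested probe sets (grey), the 10 clock genes (blue) and the 3 genes nearest to each called clock gene (crosses). Bhlhe40 lies at 0.87 and 1.67 in a sparse region, while Nr1d2 and Clock lie in the dense lower left arm. Both axes use the same 0 min arrays.

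Nr1d2, which encodes the repressor REV-ERBbeta, was lower on every PTH array than on any 0 min array. Its intensity was 352, 344 and 387 at 0 min, 211, 131 and 174 at 30 min, and 236, 58.9 and 169 at 60 min. The 60 min arrays spanned a wide range, set by replicate b, and overlapped those of 30 min. After 60 min Nr1d2 averaged 155 ± 89.6, against 361 ± 23.0 at 0 min (SD, n = 3 each), and had fallen 2.53-fold, a log2 difference of -1.34 (SE 0.37, 95% interval -2.16 to -0.53, limma adjusted p = 0.0395). After 30 min it averaged 172 ± 40.2, a log2 difference of -1.05 (SE 0.37, 95% interval -1.86 to -0.23), which did not pass at a limma adjusted p of 0.182. All 3 arrays lay below those of 0 min at 30 min for 15.3% of tested probe sets and at 60 min for 20.7%, so this separation is common on these arrays.

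The values of Nr1d2 depended on 60 min replicate b. Without that array the log2 difference at 60 min was -0.81 (limma adjusted p = 0.0402), while the 30 min difference, still -1.05, passed (0.0156). With both b arrays under PTH left out, an alternative chosen after seeing the data, Nr1d2 stood at -0.88 at 30 min (limma adjusted p = 0.0300) and -0.81 at 60 min (0.0136). The call at 60 min was lost without 0 min replicates a, b or c, 30 min replicate c or 60 min replicate c (limma adjusted p between 0.0564 and 0.113), without the filter (0.0665), without the variance trend (0.0616) and in a fit of the 0 and 60 min arrays alone (0.0609). The fit of the 0 and 30 min arrays alone called Nr1d2 at 30 min (limma adjusted p = 0.0208). The log2 difference between 60 and 30 min was -0.30 (SE 0.37, limma adjusted p = 0.779) and 0.23 without 60 min replicate b.

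Clock, the bHLH-PAS activator that pairs with BMAL1, was lower at 60 min. Its intensity was 146, 145 and 119.6 at 0 min, 124, 56.0 and 81.3 at 30 min, and 54.99, 40.4 and 68.9 at 60 min. The 60 min arrays all lay below the 0 min arrays, while at 30 min replicate a lay within the 0 min range and replicates b and c below it. After 60 min Clock averaged 54.8 ± 14.2, against 137 ± 14.9 at 0 min (SD, n = 3 each), and had fallen 2.26-fold, a log2 difference of -1.18 (SE 0.26, 95% interval -1.74 to -0.61, limma adjusted p = 0.0197). At 30 min the log2 difference was -0.64 (SE 0.26, 95% interval -1.21 to -0.075), with a limma adjusted p of 0.228, and it was -0.40 without 30 min replicate b. The call at 60 min was lost without any of the 0 min arrays (limma adjusted p between 0.0557 and 0.0857), and kept without any 1 PTH array, over -1.33 to -1.01. The difference between 60 and 30 min was -0.53 (SE 0.26, limma adjusted p = 0.558).

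Within each PTH time, both Nr1d2 and Clock were lowest on replicate b. The b arrays also had the lowest median intensity of their times, 76.3 at 30 min, against 88.5 and 85.7 for a and c, and 73.1 at 60 min, against 80.3 and 73.7. The 60 min medians all lay below those of 0 min, which were 84.4, 82.3 and 85.9. The 99th percentiles were 3474, 3606 and 3597 at 0 min and 3620, 3780 and 3443 at 30 min. At 60 min they were higher, at 3852, 4722 and 4187. These array differences thus went with time as well as with replicate letter. Of the 688 probe sets called lower at 60 min, 88.4% were lowest on replicate b among the 60 min arrays and 77.5% on replicate b among the 30 min arrays, against 39.4% and 41.0% of all tested probe sets. After quantile, 75th percentile and cyclic loess scaling, Nr1d2 at 60 min stood at -1.26, -1.28 and -1.30. Clock stood at -1.05, -1.12 and -1.09, and each of these had a limma adjusted p under 0.05. With both b arrays under PTH left out, Clock was -0.40 at 30 min (limma adjusted p = 0.282) and -1.01 at 60 min (0.0160). The part of the array differences in the falls of Nr1d2 and Clock was not tested. Bhlhe40 was not lowest on replicate b at either PTH time, being highest at 60 min on replicate a and at 30 min on replicate b. The ratio of the 3' to the 5' control probe set of Gapdh, a measure of RNA integrity, was 0.702 to 0.859 at 0 min, 0.666 to 0.818 at 30 min and 0.719 to 0.783 at 60 min, and that of actin 0.341 to 0.809, 0.302 to 0.657 and 0.563 to 0.874, so the times overlapped in both.

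**Figure D3:**
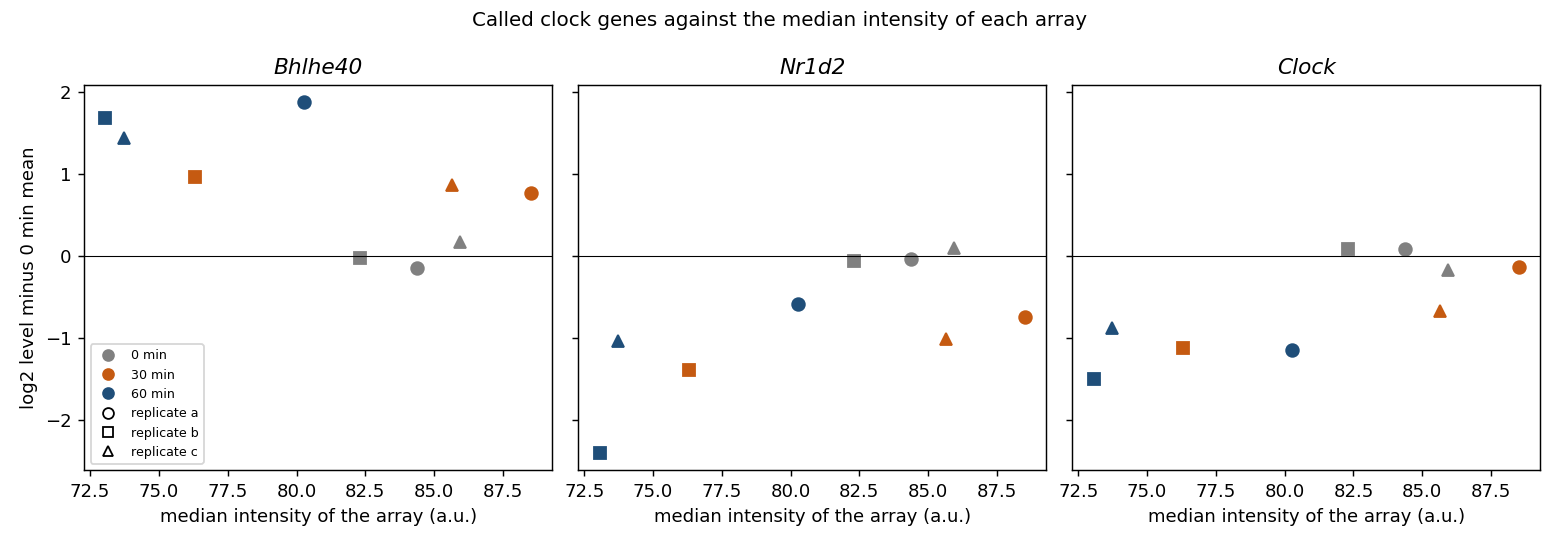
Level of Bhlhe40, Nr1d2 and Clock on each array, as log2(intensity + 11.8) minus the 0 min mean, against the median intensity of that array. Colours are times and symbols replicate letters. Nr1d2 is lowest, at -2.40, on 60 min replicate b, the array with the lowest median (73.1).

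Many probe sets shared the course of the 2 genes that fell. Within 0.25 log2 units of Nr1d2 in the pair of differences lay 120 of 7113 probe sets of other genes, and within that distance of Clock 199. The nearest to Nr1d2 were Rbms1, which encodes an RNA-binding protein, Yme1l1, a mitochondrial protease, and Ireb2, an iron-responsive RNA-binding protein, all within 0.046 log2 units. The nearest to Clock were Rabep1, an endosomal protein, Tardbp, which encodes the RNA-binding protein TDP-43, and Dnajc3, a co-chaperone of the endoplasmic reticulum, all within 0.019. Probe sets with a larger fall at 60 min numbered 159 for Nr1d2 and 277 for Clock.

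**Figure D4:**
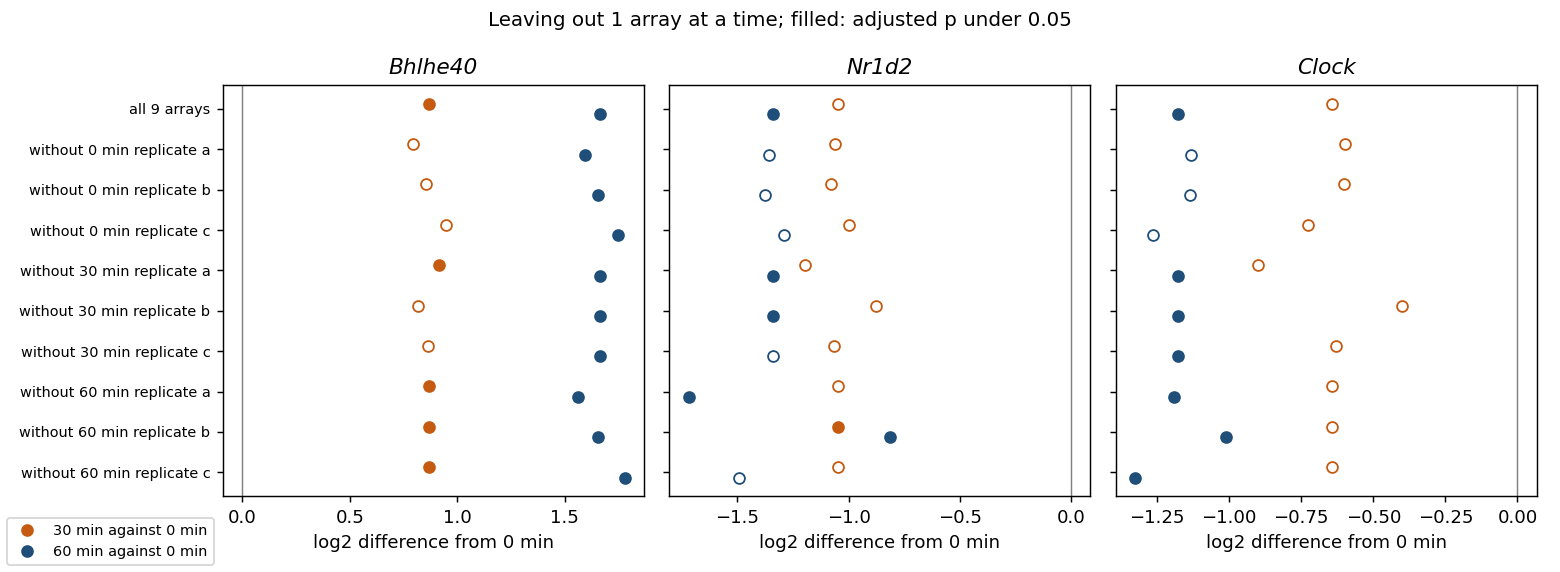
Log2 difference from 0 min of Bhlhe40, Nr1d2 and Clock in the fit of all 9 arrays and with each array left out in turn, for 30 min (orange) and 60 min (blue). Filled points have a limma adjusted p under 0.05. The 60 min rise of Bhlhe40 is filled in each fit, and the 60 min falls of Nr1d2 and Clock are open whenever a 0 min array is missing.

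The second REV-ERB gene, Nr1d1, did not pass at either PTH time. Its intensity was 109.7, 122 and 123 at 0 min, 138, 106 and 133 at 30 min, and 120.01, 162 and 125 at 60 min. All 3 times overlapped, with the highest value on 60 min replicate b, the array on which Nr1d2 was lowest. The log2 difference was 0.074 at 30 min (95% interval -0.28 to 0.43) and 0.17 at 60 min (-0.18 to 0.52), with limma adjusted p of 0.825 and 0.504. The difference between the courses of the 2 genes was not tested.

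Per1, the period gene with CREB sites in its promoter, did not pass at either time. Its intensity was 129.7, 83.0 and 102 at 0 min, 99.6, 122 and 116 at 30 min, and 139.8, 105 and 175 at 60 min. The groups overlapped throughout, and 2 of the 3 arrays at 60 min lay above the highest 0 min array. The log2 difference was 0.11 at 30 min (95% interval -0.35 to 0.56, limma adjusted p = 0.798) and 0.37 at 60 min (SE 0.21, 95% interval -0.082 to 0.83, limma adjusted p = 0.239). A rise as large as that of Bhlhe40 at 60 min lies outside the Per1 interval at that time.

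Per2, the second period gene, had intensities of 69.8, 66.7 and 88.1 at 0 min, 82.2, 68.1 and 77.6 at 30 min, and 66.3, 67.7 and 53.7 at 60 min. Its log2 difference was 0.023 at 30 min (95% interval -0.37 to 0.42) and -0.22 at 60 min (-0.62 to 0.18). The 60 min arrays all lay below the 30 min arrays, as in 6.49% of tested probe sets, with a log2 difference of -0.24 and a limma adjusted p of 0.646.

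Cry1 and Cry2 encode the cryptochromes, the partners of the period proteins. The 1 tested Cry1 probe set, whose name ends in _f_at, had intensities of 333, 301 and 286 at 0 min, 337, 312 and 292 at 30 min, and 299, 283 and 310.4 at 60 min. It had the narrowest intervals of the 10, from -0.22 to 0.28 at 30 min around a log2 difference of 0.030 and from -0.29 to 0.21 at 60 min around -0.040. That ending marks probes that may match a family of similar sequences. The other two, whose names end in _r_at, lay under the filter on all 9 arrays, at 0.9 to 10.6 and 0.2 to 11.5, and could not be tested. Cry2 had intensities of 107, 106.6 and 134 at 0 min, 102, 103 and 109 at 30 min, and 127, 134 and 98.3 at 60 min, which overlapped throughout. Its log2 difference was -0.13 at 30 min (95% interval -0.48 to 0.23) and 0.040 at 60 min (-0.31 to 0.39).

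The output factors Dbp and Tef did not pass either. Dbp was dim, with intensities of 35.1, 31.3 and 35.3 at 0 min, 8.7, 33.7 and 46.9 at 30 min, and 18.4, 48.3 and 54.0 at 60 min. It entered the test through exactly 3 arrays, all under PTH: 30 min replicate c and 60 min replicates b and c. Every 0 min array lay under the filter, so the direction of its differences is not independent of its entry. Replicate a was the lowest array at both PTH times, and without 30 min replicate a the log2 difference at 30 min turned to 0.18. With all arrays it was -0.27 at 30 min (95% interval -1.19 to 0.66) and 0.11 at 60 min (-0.82 to 1.04), the widest intervals of the 10. Tef had intensities of 609.7, 592 and 749.6 at 0 min, 513, 504 and 613 at 30 min, and 495, 706 and 659.9 at 60 min. Its log2 difference was -0.25 at 30 min (95% interval -0.60 to 0.094) and -0.076 at 60 min (-0.42 to 0.27), with limma adjusted p of 0.418 and 0.779.

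**Figure D5:**
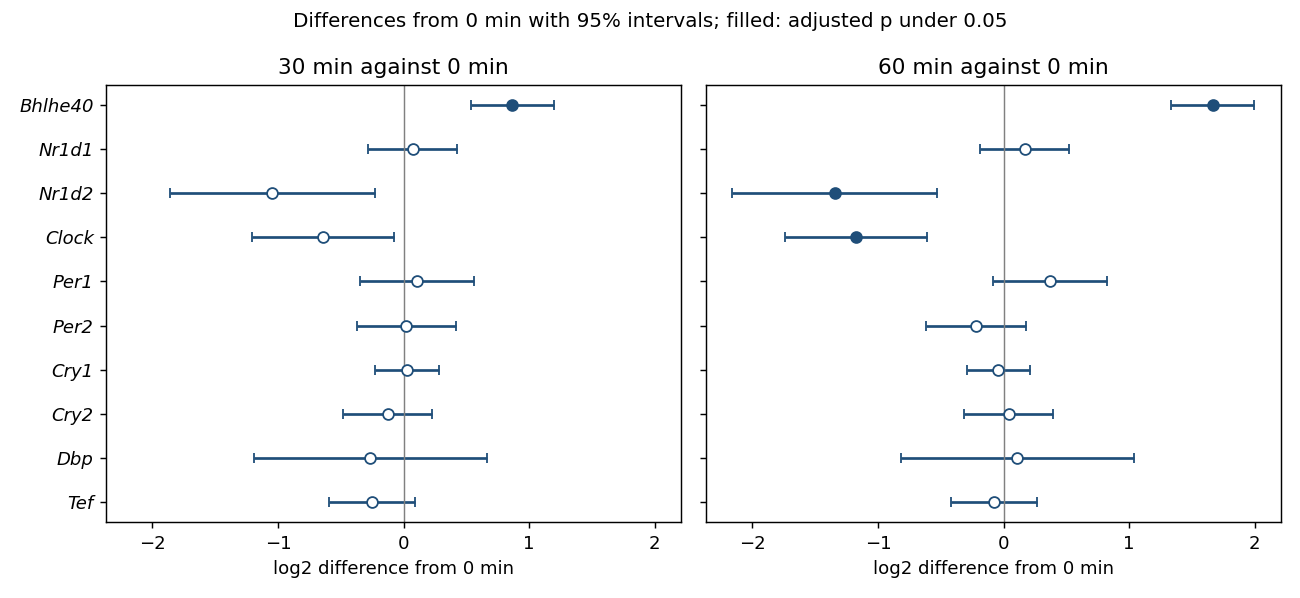
Log2 difference from 0 min of each clock gene at 30 min (left) and 60 min (right), with 95% intervals from the limma fit of all 9 arrays (n = 3 per time). Filled points have a limma adjusted p under 0.05: Bhlhe40 at both times, and Nr1d2 and Clock at 60 min.

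Other genes of the clock did not pass at any time. Of 24 further genes in a list of clock components, kinases, ubiquitin ligases and linked regulators, 16 had a probe set and 13 could be tested, with 20 probe sets. By limma, 0 of the 20 were called at 30 min, at 60 min or between 60 and 30 min, with 3, 4 and 1 at an unadjusted p under 0.05, against 17.9%, 32.8% and 9.07% of all tested probe sets, and their median log2 difference was 0.079 at 30 min and -0.0094 at 60 min. Nfil3, which encodes a repressor at D-boxes, was higher in both of its probe sets in all PTH arrays than in any 0 min array, by log2 differences of 0.42 and 0.34 at 30 min and 0.35 and 0.38 at 60 min, with limma adjusted p between 0.0700 and 0.201. Such separation above 0 min held for 15.3% of all tested probe sets at 30 min and for 1580 of the 7884 at 60 min. Nampt, the rate-limiting enzyme of NAD salvage and a target of the clock, averaged 89.8 ± 69.1 at 60 min, against 211 ± 34.4 at 0 min (SD, n = 3 each), a log2 difference of -1.44 (limma adjusted p = 0.0734). Its lowest value, 18.4, was on a 60 min array. Arntl, which encodes BMAL1, averaged 146 ± 35.5 at 0 min, 195 ± 13.3 at 30 min and 130.1 ± 28.2 at 60 min (SD, n = 3 each), and its 60 min arrays lay below all 30 min arrays by a log2 difference of -0.57 (limma adjusted p = 0.529), a separation seen in 6.49% of all tested probe sets. Rora, in its tested probe set, was lower on all PTH arrays than on any 0 min array. Its log2 differences were -0.70 at 30 min and -0.45 at 60 min (limma adjusted p = 0.261 and 0.330). Such separation below 0 min held for 15.3% of all tested probe sets at 30 min and 20.7% at 60 min. Nfil3, Nampt, Arntl and Rora were chosen after their values were seen. The 3 brightest genes of the list were Csnk1d, a kinase of the period proteins, Nono, an RNA-binding partner of the period proteins, and Fbxw11, a ubiquitin ligase subunit. In their brightest probe sets the log2 differences at 60 min were 0.27 (limma adjusted p = 0.11), 0.061 and -0.13. Their other tested probe sets gave -0.016, -0.14 and 0.37 for Csnk1d, -0.19 for Nono and -0.0033 for Fbxw11.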

How the data were processed

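The deposited values are intensities, 1 for every array and probe set, on a linear scale from 0.1 to 8605. How the authors made these intensities, with which software and scaling, is not given in the sources used here. The trimmed means of the 9 arrays (2% off each end) differed by at most 1.00177 times, so the table was used as it stands. Genes were named from the platform annotation, in which 10833 probe sets had 1 symbol, 396 several and 1193 none, with 66 control probe sets left out. The symbols of all 12 clock probe sets matched a RefSeq gene table (GRCm38.p6).

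log2(intensity + 11.8) of the deposited values, where 11.8 is their 20th percentile, was fitted with limma 3.58.1 (R 4.3.3; lmFit, eBayes with a variance trend; 6 residual and 4.68 prior degrees of freedom), 1 mean per time. Of the probe sets, 7884 had at least 3 arrays above the 40th percentile (44.7) and were tested, with Benjamini-Hochberg adjustment over all of them. An exact permutation test of 3 against 3 arrays cannot go below p = 0.1 and was not used. The number of arrays limits the precision. The script was tested on simulated data, with 200 of 7884 probe sets changed at 60 min. It recovered 17.9% of log2 changes of 0.5, 65.7% of changes of 1 and 95.2% of changes of 2, so small changes were mostly missed in this simulation. Of its calls, 5.33% were false. The simulated arrays had independent noise and no array-wide shift, unlike the arrays here. The fit of the real arrays called 1031 probe sets at 60 min and 74 at 30 min. Because the adjusted p depends on how many probe sets change, the simulated rates may not carry over to either comparison. Figures were drawn with matplotlib 3.10.9 (Python 3.11.15).

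Named were all clock probe sets, the 3 nearest genes to each called one, the called or 3 brightest of the other clock genes, and Fos. Nfil3, Nampt, Arntl, Rora, Gadd45b and single cell type markers were named after their values were seen. The members and lists were chosen with earlier results of these data known. Alternatives changed the pseudocount, filter, scaling, variance trend, groups fitted, replicate block and arrays.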

Additional observations from a re-analysis of the deposited data

How the results depend on the processing

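By limma, Bhlhe40 stayed called at 60 min in all 20 alternatives (log2 difference 1.40 to 1.78, adjusted p 0.000392 to 0.00771). Of the probe sets, 74 were called at 30 min, 1031 at 60 min and 2 between 60 and 30 min. At 30 min the count was 113 with the 40th percentile as pseudocount, 39 without a filter, 145 after quantile scaling (52 higher, 93 lower), 40 without the variance trend, 259 with the replicate block (58 higher, 201 lower), 389 with only the groups compared (105 higher, 284 lower) and 246 without both b arrays under PTH. Clock genes called at 30 min numbered 0 without a filter, 2 with only the groups compared and 2 without both b arrays. At 60 min 652 probe sets were called without a filter. Between 60 and 30 min the count was 1 with a filter on all 9 arrays, 1 with the block, 1 with only the groups compared and 9 without both b arrays. The F test called 2 clock genes with the larger pseudocount, 3 with the block and 3 without both b arrays.

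With 1 array left out, calls ranged from 16 to 574 at 30 min (clock genes 0 to 2), from 69 to 1588 at 60 min (1 to 3) and from 0 to 5 between 60 and 30 min (0 to 0), and the F test called 1 to 2 clock genes. Samples with the same letter correlated at -0.128 to 0.304 in their deviations, and not every array correlated best with its own letter. The PTH arrays correlated at 0.304 for the a pair, 0.251 for the b pair and 0.0224 for the c pair, while 30a with 60b and 30b with 60a gave -0.266 and -0.264. The same-letter pairs with 0 min arrays lay at or below 0.0776. The letters were not taken as pairing the samples, because the labels give them no shared batch or day. A pairing between the 30 and 60 min arrays was not tested and these correlations do not exclude it. With the replicate block 1446 probe sets were called at 60 min, and 1, 3 and 0 clock genes at 30 min, at 60 min and between 60 and 30 min.

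Signs changed in results near 0. Per2 at 30 min was -0.0040 after cyclic loess, and Cry1 at 60 min 0.028 after quantile and 0.025 after 75th percentile scaling. Without both b arrays, Cry2 at 60 min was -0.040, and between 60 and 30 min Nr1d1 was -0.14 and Nr1d2 0.062. Leaving out 1 array gave ranges at 30 min of -0.033 to 0.26 for Per1, -0.044 to 0.13 for Per2, -0.021 to 0.087 for Cry1 and -0.40 to 0.18 for Dbp. At 60 min they were -0.087 to 0.017 for Cry1, -0.040 to 0.16 for Cry2 and -0.18 to 0.076 for Tef, and between 60 and 30 min -0.028 to 0.17 for Nr1d1, -0.67 to 0.23 for Nr1d2 and -0.070 to 0.73 for Dbp. The cause was not tested. With the filter on all 9 arrays Clock and Dbp could not be tested. Dbp was also untested after quantile scaling, against 0 min with only the groups compared, without both b arrays, and without 30 min replicate c or 60 min replicates b or c, so its ranges rest on 6 of the 9 arrays left out in turn. With 3 arrays per time, changes in dim genes such as Dbp could be seen only if large.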
